A study of Homo sapiens with 9 samples.

Results

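The genes described here are 46 genes of mitosis and the spindle, listed by name for their known roles, with earlier results of these data known. Of these, 45 were represented among the 12165 genes of the arrays, each by the single-gene probe set with the highest mean, and KIF15 was not analysed here. The cells were LNCaP, an established human prostate cancer line that needs androgen to divide well. All cultures spent 2 days in medium with charcoal-stripped serum, which takes away steroid hormones, and 3 arrays were made for each of 3 treatments. Vehicle cultures received ethanol and DMSO, androgen cultures received 1 nM R1881, a synthetic androgen, with DMSO, and the last group received 1 nM R1881 with 1.25 µM celastrol, a plant triterpenoid. Treatment lasted 24 h by the labels in the vehicle cultures and in those with celastrol. In the androgen cultures titles say 6 h while descriptions and protocol say 24 h. The fold changes of androgen plus celastrol against vehicle do not use the androgen arrays. Those arrays did enter the shared estimate of spread behind the p-values of that comparison. The labels call the arrays biological replicates without saying how the cultures were kept apart, so that p-values measure the spread between these arrays. No group received celastrol without androgen.

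Cells enter mitosis when cyclin B, made in the G2 phase, activates the kinase CDK1. Polo-like and Aurora kinases then help to build the spindle, kinesin motors move and bundle its microtubules, and condensin and topoisomerase shape the chromosomes. The spindle checkpoint holds back the anaphase-promoting complex until every kinetochore is attached, after which securin and cyclin B are degraded and separase frees the sister chromatids. Many of these genes are transcribed late in the cell cycle and are low in resting cells. Their promoters often carry a cell cycle homology region (CHR), bound by the DREAM and B-MYB complexes, and CCAAT boxes bound by NF-Y. In a bulk culture, fewer cells in G2 and mitosis and less RNA per such cell cannot be told apart.

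Promoter sequences were looked up because the genes moved together. The genes were listed for their known roles, so the shares of letters below describe that list. Whether the letters have a part in the changes was not tested. RefSeq promoters on GRCh38.p14, from 250 bases before to 50 bases after the start site, were found for 39 of the 45 genes, and for 9 genes with several listed starts the 5′-most was taken. They were searched on both strands for the 6-letter CHR forms TTTGAA (reverse complement TTCAAA) and TTTAAA (its own reverse complement), and for CCAAT (reverse complement ATTGG). The promoters below belong to genes whose values are given in full further on: the largest fall (TOP2A), 4 others that fell from different roles, KIF18A, which did not pass the test, and MELK, which fell and whose promoter holds neither of the letter groups. Capitals mark the matches, and all sequences run 5′ to 3′ on the strand of the gene.
TOP2A: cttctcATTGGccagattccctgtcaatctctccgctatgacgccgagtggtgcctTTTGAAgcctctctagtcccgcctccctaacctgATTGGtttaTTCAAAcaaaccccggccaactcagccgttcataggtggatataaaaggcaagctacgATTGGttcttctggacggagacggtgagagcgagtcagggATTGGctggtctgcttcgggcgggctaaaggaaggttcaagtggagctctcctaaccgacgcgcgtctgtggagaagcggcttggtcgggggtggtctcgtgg
CDK1: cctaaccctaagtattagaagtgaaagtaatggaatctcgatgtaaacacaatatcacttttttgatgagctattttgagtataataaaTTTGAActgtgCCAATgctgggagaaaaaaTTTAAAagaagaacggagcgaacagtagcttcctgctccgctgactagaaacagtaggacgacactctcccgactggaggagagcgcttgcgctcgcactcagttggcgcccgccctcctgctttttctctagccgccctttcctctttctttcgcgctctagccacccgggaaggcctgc
KIF20A: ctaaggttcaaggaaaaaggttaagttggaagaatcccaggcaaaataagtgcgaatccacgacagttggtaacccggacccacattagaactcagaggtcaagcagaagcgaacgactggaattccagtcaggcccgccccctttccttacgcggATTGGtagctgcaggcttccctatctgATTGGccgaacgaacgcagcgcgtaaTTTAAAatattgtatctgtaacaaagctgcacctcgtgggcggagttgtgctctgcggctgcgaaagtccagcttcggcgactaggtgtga
NUSAP1: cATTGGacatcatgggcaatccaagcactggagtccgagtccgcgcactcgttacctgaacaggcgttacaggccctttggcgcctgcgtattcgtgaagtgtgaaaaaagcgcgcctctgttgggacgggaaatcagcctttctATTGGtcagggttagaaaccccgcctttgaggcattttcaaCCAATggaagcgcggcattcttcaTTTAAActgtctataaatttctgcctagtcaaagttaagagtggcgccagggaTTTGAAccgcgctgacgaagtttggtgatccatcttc
CDC20: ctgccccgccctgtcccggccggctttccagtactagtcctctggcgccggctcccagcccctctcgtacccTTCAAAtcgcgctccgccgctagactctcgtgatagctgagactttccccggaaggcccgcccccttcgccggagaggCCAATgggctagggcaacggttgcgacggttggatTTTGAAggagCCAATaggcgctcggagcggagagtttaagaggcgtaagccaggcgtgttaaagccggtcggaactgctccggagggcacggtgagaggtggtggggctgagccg
KIF18A: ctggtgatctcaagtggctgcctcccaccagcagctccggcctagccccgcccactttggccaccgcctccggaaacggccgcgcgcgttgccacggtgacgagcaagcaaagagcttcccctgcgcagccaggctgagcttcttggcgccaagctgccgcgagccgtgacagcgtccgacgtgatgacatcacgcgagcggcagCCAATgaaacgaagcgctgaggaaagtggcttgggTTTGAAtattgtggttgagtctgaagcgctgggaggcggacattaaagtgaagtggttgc
MELK: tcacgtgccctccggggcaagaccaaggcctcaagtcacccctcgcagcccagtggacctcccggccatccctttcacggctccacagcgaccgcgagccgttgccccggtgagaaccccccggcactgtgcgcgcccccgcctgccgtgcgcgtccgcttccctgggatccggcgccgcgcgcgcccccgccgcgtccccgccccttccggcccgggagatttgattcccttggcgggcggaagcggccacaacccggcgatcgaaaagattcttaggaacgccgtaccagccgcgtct
These lie at chr17:40417847-40418146, minus strand, chr10:60778081-60778380, plus strand, chr5:138178862-138179161, plus strand, chr15:41332631-41332930, plus strand, chr1:43358731-43359030, plus strand, chr11:28108107-28108406, minus strand, and chr9:36572645-36572944, plus strand.

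CHR letters were present in 31 of the 39 promoters (79.5%), against 17.9% of the 9711 promoters of genes tested on these arrays and 24.4% of all 27305 promoters in the table. CCAAT was present in 28 (71.8%), against 37.3% and 35.7%. Both stood together in 24 (61.5%), against 7.54% and 9.55%. The matches were also close to the start: 26 of the 39 promoters (66.7%) had CHR letters between 60 bases before the start and the end of the window, against 5.4% of the promoters of genes tested. In KIF20A the CHR letters began 41 bases before the start, with CCAAT letters beginning 67 and 94 bases before it. In CDC20 they began 65 and 178 bases before the start. A match describes letters, not a bound site. Only TTTGAA and TTTAAA were searched as CHR letters, so a promoter without them may hold another form. By response, the 31 genes with CHR letters had a median log2 fold change of -1.07 with celastrol against androgen (range -2.25 to -0.13). The 8 without either of these forms had a median of -0.84 (range -1.36 to -0.60). Of these, 28 of the 31 and 7 of the 8 passed the threshold downwards, where 7.24% of all genes tested did. The 28 genes with CCAAT had a median of -1.06, with 27 passing, and the 11 without a median of -0.84, with 8 passing. The ranges overlapped in both splits, and the differences were not tested.

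**Figure D1:**
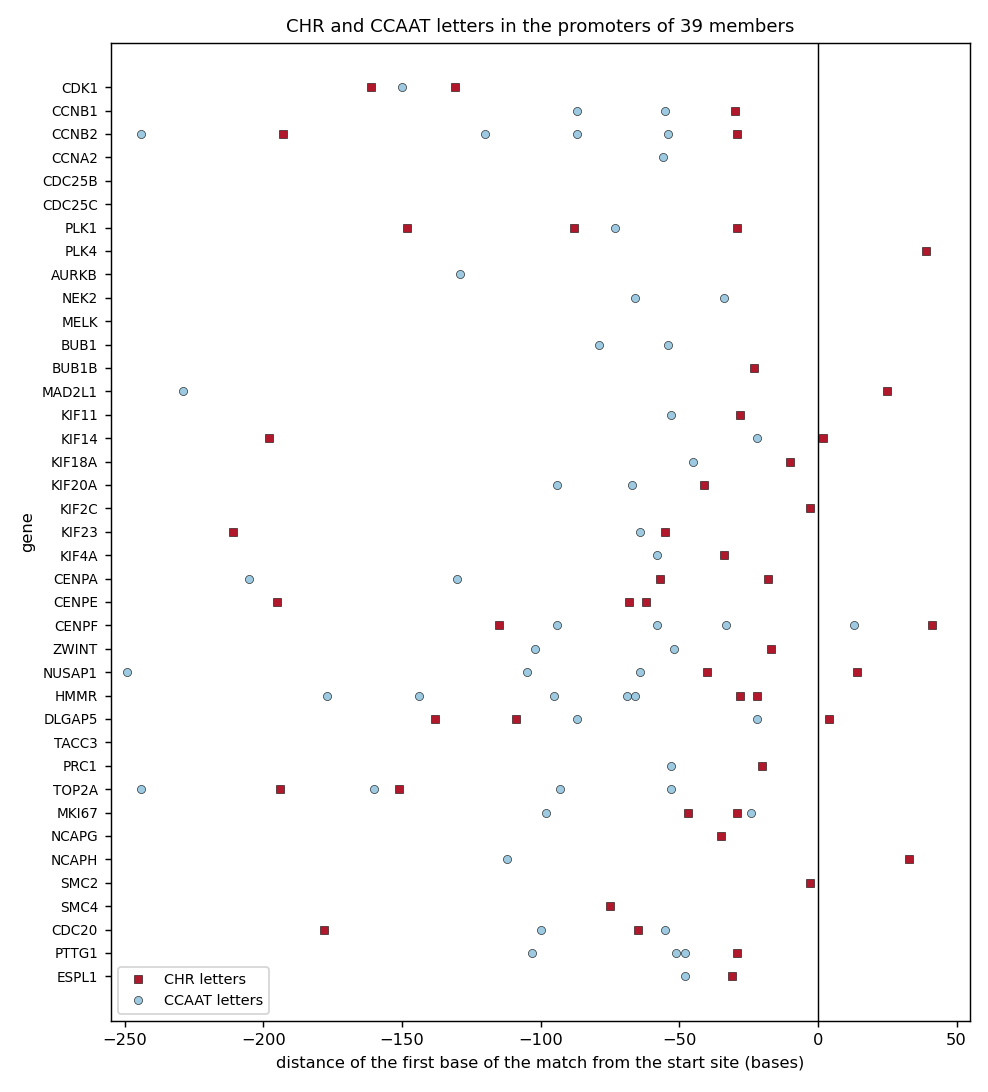
Positions of CHR letters (red squares) and CCAAT letters (blue circles) in the promoters of 39 mitosis and spindle genes, 1 row per gene; the horizontal axis gives the distance of the first base of each match from the start site in bases. CHR letters cluster just before the start, and 31 of 39 rows hold at least 1 red square.

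The 9 arrays had median intensities of 72.2 to 80.2. The third vehicle array differed most from its group, with the largest standard deviation of gene-wise deviations from its group mean (0.31 on the log2 scale, against 0.20 or less on the others), and results that rest on it are given with and without it. Of the luminal prostate markers listed, 7 were measured, with intensities of 115 to 15899 across arrays. Basal epithelial markers (3 measured, KRT5 among them) lay between 27.5 and 90.1, and blood and endothelial markers (5 measured) between 25.7 and 124.9, with the upper end from VWF in vehicle cultures. Of 7 stromal markers ACTA2 was the highest, at group means of 161 in vehicle, 255 in androgen and 150 in androgen plus celastrol. The part of such markers in the results was not tested.

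Most of the mitosis and spindle genes were lower with celastrol. With androgen plus celastrol, 40 of the 45 genes fell and none rose against androgen alone (limma, Benjamini-Hochberg adjusted over 12165 genes), where 16.2% of all genes tested passed, 7.24% lower and 9.0% higher. The median log2 fold change of the 45 genes was -1.0, against 0.02 for all genes, and 23 of them fell at least 2-fold, which 1.25% of all genes did. Every celastrol array lay below every androgen array for 43 of the 45 genes, against 15.5% of all genes, and above for none, against 20.4%. At an unadjusted limma p under 0.05, 43 genes were lower and 0 higher. At that cut-off 1418 of all 12165 genes were lower and 1845 higher. Leaving out androgen replicate 1 gave a count of 33 and leaving out vehicle replicate 3 one of 43, the lowest and the highest on leaving out 1 array. Over all 12165 genes, 550 and 1155 were called lower in these fits. None of the 45 genes rose in any of the 18 alternatives. Leaving out androgen replicate 2 lowered the count of all genes called from 1976 to 1306, while 36 of the 45 genes remained past the threshold. The heat map shows the single arrays by functional group.

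**Figure D2:**
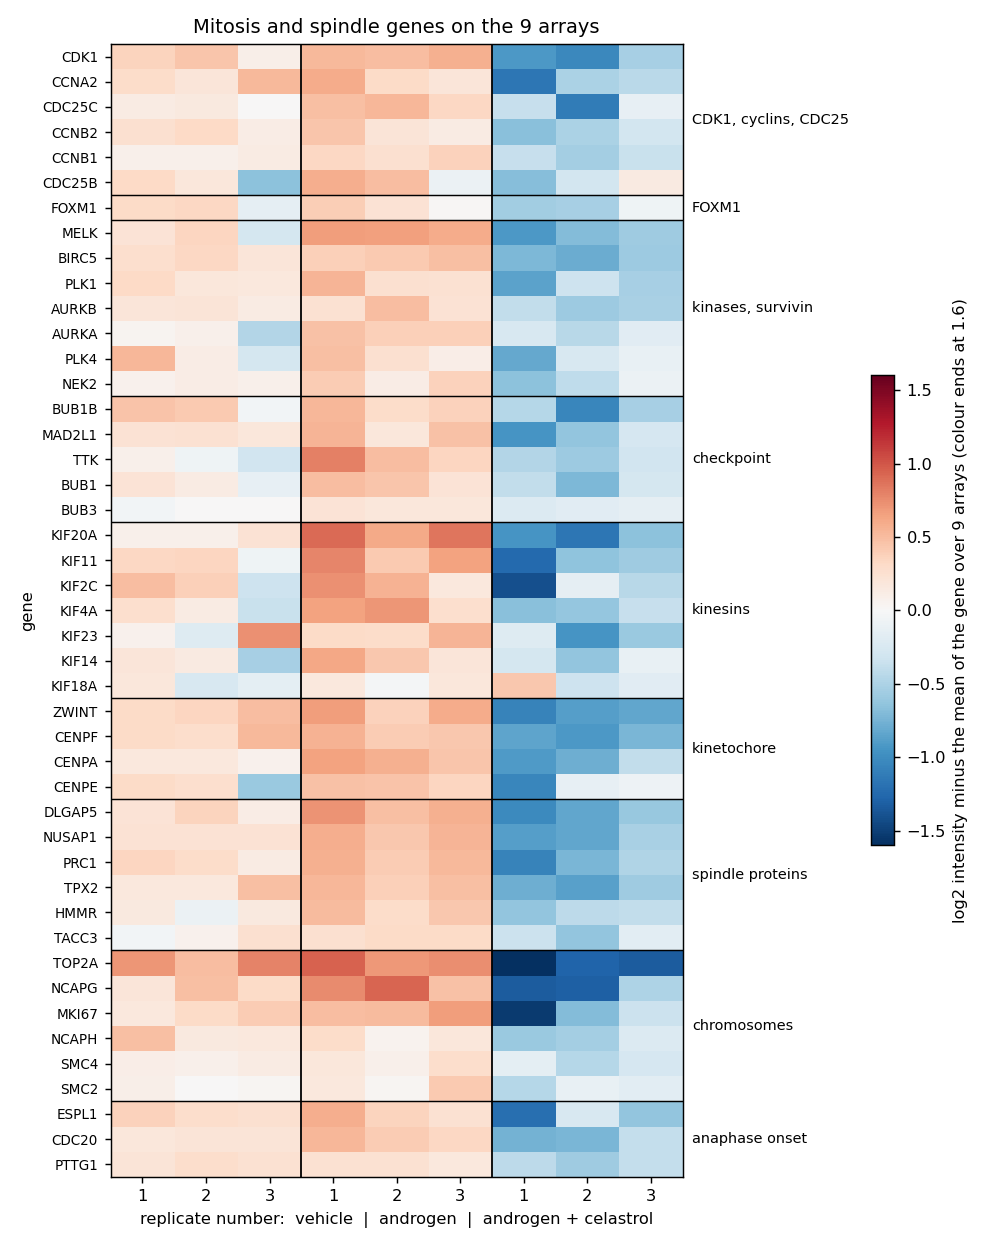
Heat map of 45 mitosis and spindle genes (rows, grouped by role and ordered by their change with celastrol) on the 9 arrays (columns); colour gives log2 intensity minus the mean of the gene over the 9 arrays. The 3 androgen plus celastrol arrays are below the gene's own mean in nearly all rows, and the 3 androgen arrays above it.

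Array by array, the median deviation of the 45 genes from their own means was 0.22, 0.19 and 0.13 on the vehicle arrays, 0.53, 0.41 and 0.37 on the androgen arrays and -0.71, -0.63 and -0.39 on the androgen plus celastrol arrays, on the log2 scale. On the androgen plus celastrol arrays 1, 0 and 1 of the 45 genes lay above their own mean. The group means ran from androgen through vehicle down to androgen plus celastrol in 42 of 45 genes. NCAPH and PTTG1 had vehicle above androgen, and KIF18A had vehicle lowest. The spread between replicates was wider with celastrol: the median standard deviation of these genes was 0.25 in androgen plus celastrol, 0.14 in vehicle and 0.12 in androgen, against 0.13, 0.16 and 0.10 for all genes.

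Of CDK1, its cyclins and its CDC25 activators, 5 of 6 fell against androgen alone. CDK1, the kinase that drives entry into mitosis, had intensities of 2908, 3097 and 2437 in vehicle, 3273, 3194 and 3384 in androgen and 1202, 1115 and 1572 in androgen plus celastrol. All 3 celastrol arrays lay below all 6 others, and the log2 fold change against androgen was -1.36 ± 0.14 (log2 with its standard error, n = 3 arrays in each group, adjusted p = 0.000348). CCNA2, the cyclin of S phase and early mitosis, was at 387, 360 and 453 in vehicle, 476, 391 and 360 in androgen and 141, 221 and 233 in androgen plus celastrol. Vehicle and androgen overlapped, while the celastrol arrays stood below both (-1.07 ± 0.20, adjusted p = 0.00658). The B-type cyclins CCNB1 (-0.74 ± 0.08) and CCNB2 (-0.75 ± 0.12) fell less far than CDK1 in fitted value, and the activating phosphatase CDC25C changed by -0.98 ± 0.22. CDC25B, which acts earlier in G2, did not pass: it read 209, 190 and 107 in vehicle, 251, 236 and 157 in androgen and 105, 136 and 185 in androgen plus celastrol (-0.60 ± 0.31, adjusted p = 0.256). Its arrays overlapped between all groups. The CDC25C call was lost without androgen replicate 1 or androgen replicate 2 (adjusted p = 0.0571 to 0.0627).

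FOXM1, a transcription factor of G2 and mitosis genes, was at 212, 215 and 155 in vehicle, 225, 200 and 173 in androgen and 117, 119 and 163 in androgen plus celastrol. The celastrol arrays were below the androgen arrays but not all below vehicle, and the change against androgen missed the threshold (-0.60 ± 0.18, adjusted p = 0.0548). It passed in 8 of the 18 alternatives (adjusted p = 0.00738 to 0.0477), among them without vehicle replicate 3 and without androgen plus celastrol replicate 3.

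Of the 7 mitotic kinase genes, with survivin, 6 fell. MELK, a kinase that peaks in mitosis, read 374, 409 and 265 in vehicle, 512, 509 and 487 in androgen and 171, 199 and 217 in androgen plus celastrol. The 3 groups did not overlap, with androgen on top (-1.36 ± 0.16 against androgen, adjusted p = 0.000682). BIRC5, which encodes the Aurora B partner survivin, was at 582, 608 and 549 in vehicle, 630, 643 and 674 in androgen and 294, 278 and 322 in androgen plus celastrol. Its replicates were close together, and the celastrol arrays stood below both other groups (-1.12 ± 0.08 against androgen, adjusted p = 7.82e-05, and -0.96 ± 0.08 against vehicle, adjusted p = 6.90e-05). PLK1, which acts throughout mitosis, changed by -0.92 ± 0.14, AURKB, the kinase that corrects kinetochore attachment, by -0.82 ± 0.09, AURKA, which matures the centrosomes, by -0.70 ± 0.15 and NEK2, which separates them, by -0.68 ± 0.14. PLK4, the kinase of centriole duplication, did not pass (-0.68 ± 0.24, adjusted p = 0.0915): it read 251, 189 and 144 in vehicle, 244, 208 and 187 in androgen and 98.7, 145 and 160 in androgen plus celastrol. Its celastrol arrays lay below the androgen arrays, and it passed without vehicle replicate 3 and with quantile normalization (adjusted p = 0.0219 to 0.0409). The AURKA call was lost on leaving out androgen replicate 1 or replicate 2 of the combined treatment (adjusted p = 0.0511 to 0.0529).

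All 5 spindle checkpoint genes fell. BUB1B, which encodes the checkpoint kinase-like protein BUBR1, read 561, 548 and 397 in vehicle, 591, 499 and 528 in androgen and 297, 198 and 284 in androgen plus celastrol. Its celastrol arrays were below all others (-1.07 ± 0.18, adjusted p = 0.00455). MAD2L1, which binds and holds back CDC20, was at 825, 828 and 799 in vehicle, 1021, 798 and 968 in androgen and 366, 455 and 581 in androgen plus celastrol. Androgen array 2 reached down to the vehicle level, and the celastrol arrays were again the lowest (-1.01 ± 0.16, adjusted p = 0.00336). TTK, the kinase at the head of the checkpoint, read 149, 134 and 113 in vehicle, 244, 197 and 178 in androgen and 101, 93.6 and 114 in androgen plus celastrol. Androgen stood above both other groups, which overlapped with each other (-1.0 ± 0.15 against androgen, adjusted p = 0.00207). BUB1 changed by -0.85 ± 0.14. BUB3, which carries BUB1 and BUBR1 to kinetochores, had the smallest change that passed (-0.38 ± 0.07, adjusted p = 0.00546). The BUB1 and BUB3 calls disappeared when averages over all of a gene's probe sets were tested (adjusted p = 0.0846 for BUB1 and 0.0790 for BUB3).

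**Figure D3:**
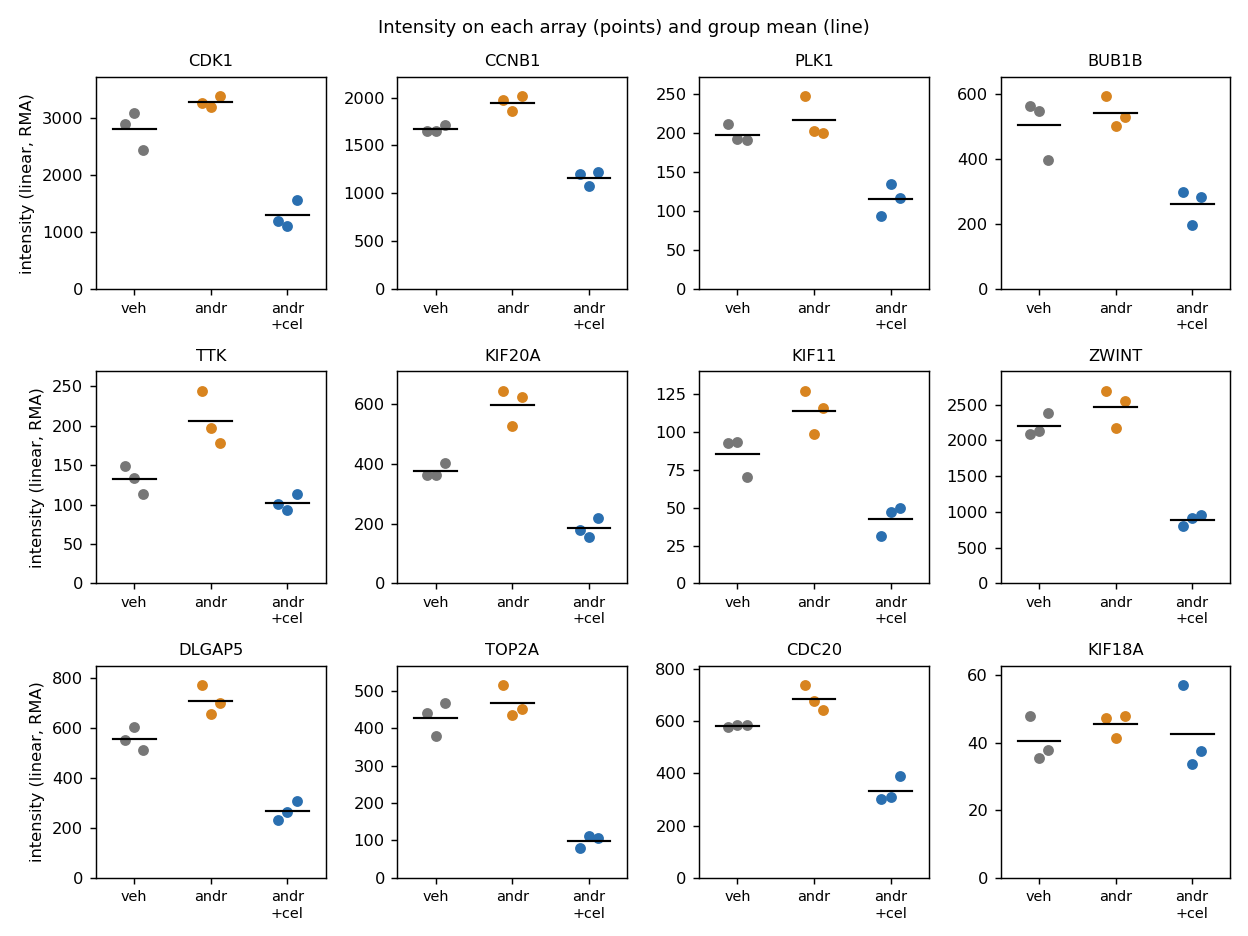
Deposited intensity (linear scale, axes from 0) of 12 genes on each array, with points for arrays and lines for group means (veh vehicle, andr androgen, andr +cel androgen plus celastrol, 3 arrays each). In 11 of the panels all celastrol points lie below the androgen points, and in KIF18A they overlap.

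Among the kinesin motors 6 of 7 fell. KIF20A, needed for the final separation of daughter cells, read 363, 363 and 402 in vehicle, 643, 525 and 622 in androgen and 179, 155 and 218 in androgen plus celastrol. The 3 groups did not overlap, and the fall against androgen was the third largest of the 45 genes (-1.71 ± 0.14, adjusted p = 9.22e-05). KIF11, the motor that pushes the spindle poles apart, was at 92.6, 93.7 and 70.1 in vehicle, 127, 98.9 and 116 in androgen and 31.3, 47.2 and 49.6 in androgen plus celastrol. Again the order was androgen, vehicle, celastrol with no overlap (-1.44 ± 0.20 against androgen, adjusted p = 0.00142). The celastrol values lay below the median intensity of every array and in the range of the basal markers, which limits how well the size of this change is known. KIF4A, which works on chromosome arms, changed by -1.09 ± 0.18. The microtubule-depolymerising KIF2C (-1.15 ± 0.34, adjusted p = 0.0498), KIF23 of the central spindle (-0.96 ± 0.25, adjusted p = 0.0328) and KIF14 (-0.76 ± 0.22, adjusted p = 0.0448) passed narrowly. KIF2C lost its call without vehicle replicate 1 or 2, any 1 androgen array, androgen plus celastrol replicate 1 or 3, or with the replicate block (adjusted p = 0.0645 to 0.160). KIF23 lost it without vehicle replicate 1, any 1 androgen array, androgen plus celastrol replicate 2 or 3, or with quantile normalization (0.0506 to 0.116). KIF14 lost it without vehicle replicate 1 or 2, any 1 androgen array, any 1 androgen plus celastrol array, with quantile normalization or with the replicate block (0.0514 to 0.153).

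KIF18A, which damps chromosome movements at metaphase, was the exception among the motors. It read 47.9, 35.5 and 37.9 in vehicle, 47.5, 41.5 and 48.1 in androgen and 57.2, 33.6 and 37.5 in androgen plus celastrol, below the median intensity of every array. The groups overlapped (-0.13 ± 0.20, 95% interval -0.58 to 0.32, adjusted p = 0.747). Its correlation over the 9 arrays with the mean of the other 44 genes was 0.08, the lowest of the 45, with CDC25B next at 0.65 and DLGAP5 highest at 0.995 (a description, since the arrays share the treatment).

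Centromere and kinetochore genes fell in 3 of 4 cases. ZWINT, which links the outer kinetochore to the checkpoint, was at 2096, 2137 and 2391 in vehicle, 2697, 2178 and 2547 in androgen and 806, 917 and 954 in androgen plus celastrol. Vehicle and androgen overlapped and the celastrol arrays were far below both (-1.47 ± 0.11, adjusted p = 7.69e-05). CENPF, a large kinetochore protein of G2 and mitosis, read 320, 314 and 370 in vehicle, 381, 344 and 349 in androgen and 144, 137 and 156 in androgen plus celastrol. It followed the same pattern (-1.30 ± 0.10, adjusted p = 7.00e-05). The centromeric histone CENPA changed by -1.25 ± 0.13. The kinetochore motor CENPE was at 178, 173 and 95.3 in vehicle, 198, 198 and 183 in androgen and 69.6, 131 and 136 in androgen plus celastrol. Its celastrol arrays were below the androgen arrays, and vehicle array 3 lay among them (-0.84 ± 0.30, adjusted p = 0.100). It passed without vehicle replicate 3 and with quantile normalization (adjusted p = 0.0323 to 0.0498).

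All 6 genes of spindle-associated proteins fell. DLGAP5, which stabilises spindle fibres at kinetochores, read 550, 604 and 513 in vehicle, 773, 655 and 699 in androgen and 233, 265 and 308 in androgen plus celastrol. The 3 groups did not overlap (-1.41 ± 0.12, adjusted p = 0.000139). NUSAP1, which bundles microtubules near chromosomes, was at 1050 on all 3 vehicle arrays, at 1347, 1207 and 1307 in androgen and at 488, 502 and 624 in androgen plus celastrol (-1.26 ± 0.10, adjusted p = 0.000111). Exactly equal deposited values on at least 2 arrays of a group occurred in 7 of the 45 genes in vehicle and in 0 in the other groups. Over all 12165 genes they occurred in 773 in vehicle, 1118 in androgen and 761 in androgen plus celastrol. PRC1, which bundles the central spindle, changed by -1.26 ± 0.14, the Aurora A activator TPX2 by -1.20 ± 0.12, HMMR by -0.89 ± 0.11 and TACC3, which works with Aurora A at spindle fibres, by -0.67 ± 0.13.

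The largest falls came from genes that shape chromosomes, of which 6 of 6 fell. TOP2A, which untangles sister chromatids, read 441, 379 and 468 in vehicle, 517, 435 and 451 in androgen and 79.8, 111 and 107 in androgen plus celastrol. Vehicle and androgen overlapped, and intensity was 4.75-fold lower with celastrol than with androgen (log2 -2.25 ± 0.14, adjusted p = 3.66e-05). NCAPG, a subunit of condensin I, was at 387, 472 and 420 in vehicle, 573, 646 and 469 in androgen and 134, 137 and 240 in androgen plus celastrol. Androgen array 3 reached down to the vehicle range, and celastrol array 3 was the highest of its group (-1.76 ± 0.22, adjusted p = 0.000982). The condensin I partner NCAPH (-0.63 ± 0.13) and the condensin core subunits SMC4 (-0.48 ± 0.10) and SMC2 (-0.45 ± 0.12) had smaller fitted changes, and the proliferation marker MKI67 one of -1.41 ± 0.25. NCAPH lost its call on leaving out androgen replicate 1 or replicate 2 of the combined treatment (adjusted p = 0.0538 to 0.0562). SMC2 kept its call without vehicle replicate 3 and without androgen replicate 2 but lost it without any other array, with the replicate block, with averaged probe sets and when only the compared groups were fitted (0.0539 to 0.123).

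The 3 genes of anaphase onset fell. ESPL1, which encodes separase, read 193, 183 and 180 in vehicle, 225, 192 and 178 in androgen and 65.0, 125 and 97.0 in androgen plus celastrol. The celastrol arrays were below the others and spread more widely (-1.10 ± 0.21, adjusted p = 0.00754). CDC20, the activator of the anaphase-promoting complex, was at 578, 586 and 586 in vehicle, 740, 677 and 642 in androgen and 303, 308 and 391 in androgen plus celastrol. The 3 groups did not overlap (-1.05 ± 0.11, adjusted p = 0.000381). PTTG1, securin, changed by -0.68 ± 0.08.

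Further probe sets of the same genes were compared as a check that did not enter the choice. They were tested in a separate limma fit, adjusted over 19724 single-gene probe sets. The share of all probe sets past the threshold in that fit was not counted, so its counts stand without a background. In that fit the chosen probe sets of KIF2C and KIF14 did not pass with celastrol against androgen (adjusted p = 0.0556 and 0.0510). For 20 of the 45 genes there were 34 other single-gene probe sets. Of these, 30 had the sign of the chosen one in the celastrol comparison, 18 were lower past the threshold and none higher. Those of CDK1 gave -1.64 ± 0.13 and -1.71 ± 0.13, that of TOP2A -1.99 ± 0.16 and that of CCNA2 -1.38 ± 0.16. Of those of SMC4, the one with the higher mean intensity gave -0.90 ± 0.09, a larger change than the chosen one (-0.48 ± 0.10). All 3 other probe sets of BUB3 missed the threshold (-0.12 ± 0.09, -0.12 ± 0.09 and -0.23 ± 0.09), as did the 4 of BUB1. Of those of BUB1, the one with the highest mean intensity gave -0.87 ± 0.37. The rest had the opposite sign (0.05 ± 0.08, 0.25 ± 0.15 and 0.24 ± 0.13), at low mean intensities of 24.1 to 44.9. Between androgen plus celastrol and vehicle, 31 of the 34 had the sign of the chosen one, 14 were lower past the threshold and none higher.

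Against vehicle, where every array carries the same 24 h label, the combined treatment still left these genes lower. Of the 45 genes, 31 fell and none rose, where 23.3% of all genes passed, 10.0% lower and 13.3% higher, and the median was -0.78 against -0.01 for all genes. At an unadjusted limma p under 0.05, 39 genes were lower and 0 higher. At that cut-off 1941 of all 12165 genes were lower and 2256 higher. With the androgen arrays left out of the fit, 28 of the 45 genes passed, all lower. In that fit 2144 of all genes passed, 879 lower and 1265 higher. Every array of the combined treatment lay below every vehicle array for 35 genes, against 17.1% of all genes, and above for none, against 20.1%. At least 2-fold falls were found in 13 genes, against 1.73% of all genes. TOP2A had again the largest (-2.12 ± 0.14, adjusted p = 1.91e-05), followed by NCAPG (-1.37 ± 0.22), ZWINT (-1.31 ± 0.11), CENPF (-1.20 ± 0.10), MKI67 (-1.15 ± 0.25) and CDK1 (-1.13 ± 0.14). The other probe sets of MKI67 gave smaller changes against vehicle (-0.33 ± 0.14, -0.48 ± 0.23 and -0.58 ± 0.12), and only the last of them passed. The count was 34 without vehicle replicate 3, where 1409 of all 12165 genes were called lower and 1526 higher. All 6 spindle-associated genes and all 3 anaphase genes passed, and so did 2 of the 7 kinesins, KIF20A (-1.05 ± 0.14) and KIF11 (-1.02 ± 0.20). Without vehicle replicate 3 the kinesins KIF2C and KIF4A passed too, which makes 4, as did FOXM1 and PLK4. KIF23 passed in 5 alternatives (adjusted p = 0.0284 to 0.0446), among them without vehicle replicate 2 and without replicate 1 of the combined treatment. CDC25C passed without replicate 3 of the combined treatment (0.0253). AURKA (-0.18 ± 0.15, adjusted p = 0.434), TTK (-0.36 ± 0.15, adjusted p = 0.121) and BUB3 (-0.17 ± 0.07, adjusted p = 0.108) fell against androgen and did not pass against vehicle. AURKA passed there without vehicle replicate 3 (log2 -0.35, adjusted p = 0.0286), and BUB3 with quantile normalization and with a variance trend (0.0196 to 0.0203). Some calls here were lost on leaving out arrays. NEK2 (-0.48 ± 0.14) lost its call without any 1 vehicle array, replicate 1 or 3 of androgen, or the first or second array of the combined treatment, with the replicate block and with only the compared groups (adjusted p = 0.0508 to 0.104). TACC3 (-0.47 ± 0.13) lost it without replicate 2 or 3 of vehicle, or 1 or 2 of the combined treatment, and under other settings (0.0548 to 0.0786). BUB1 (-0.54 ± 0.14) lost it without replicate 1 or 2 of vehicle, or 2 of the combined treatment, and under other settings (0.0586 to 0.166). SMC4 (-0.41 ± 0.10) lost it without androgen plus celastrol replicate 2 and with array medians subtracted (0.0534 to 0.0571).

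Androgen alone moved few of these genes past the threshold. Of the 45 genes, 2 rose and none fell against vehicle, where 13.0% of all genes passed, 7.17% higher and 5.84% lower. Fitted values were above 0 for 43 of the 45 genes, with a median of 0.21 against -0.04 for all genes. At an unadjusted limma p under 0.05, 11 of the 45 genes were higher and 0 lower. At that cut-off 1430 of all 12165 genes were higher and 1416 lower. Every androgen array lay above every vehicle array for 20 genes, against 14.1% of all genes, and below for none, against 14.2%. The risers were KIF20A (0.66 ± 0.14, adjusted p = 0.0117) and TTK (0.64 ± 0.15, adjusted p = 0.0199). Of the 34 other probe sets, 1 rose past the threshold, belonging to SMC4 (0.51 ± 0.09, limma adjusted p = 0.00723). The chosen probe set of SMC4 did not pass (0.07 ± 0.10). KIF20A lost its call without androgen replicate 1 (adjusted p = 0.0539), and TTK without vehicle replicate 2 or androgen replicate 1 or 2 (0.0504 to 0.0688). MELK (0.55 ± 0.16, adjusted p = 0.0586), AURKA (0.53 ± 0.15, adjusted p = 0.0509) and CENPA (0.42 ± 0.13, adjusted p = 0.0710) came next to the threshold. AURKA passed without vehicle replicate 2 or 3, MELK without vehicle replicate 2 and CENPA without replicate 1 or 3 of the combined treatment, besides other settings. The number past it was 0 without androgen replicate 1 (limma, with 6 higher and 0 lower at an unadjusted p under 0.05), 1 without androgen replicate 2, 4 without androgen plus celastrol replicate 3, 3 without vehicle replicate 3 and 10 with each array's median subtracted, all upwards. The comparisons with androgen arrays share those arrays, so the values are set side by side only.

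**Figure D4:**
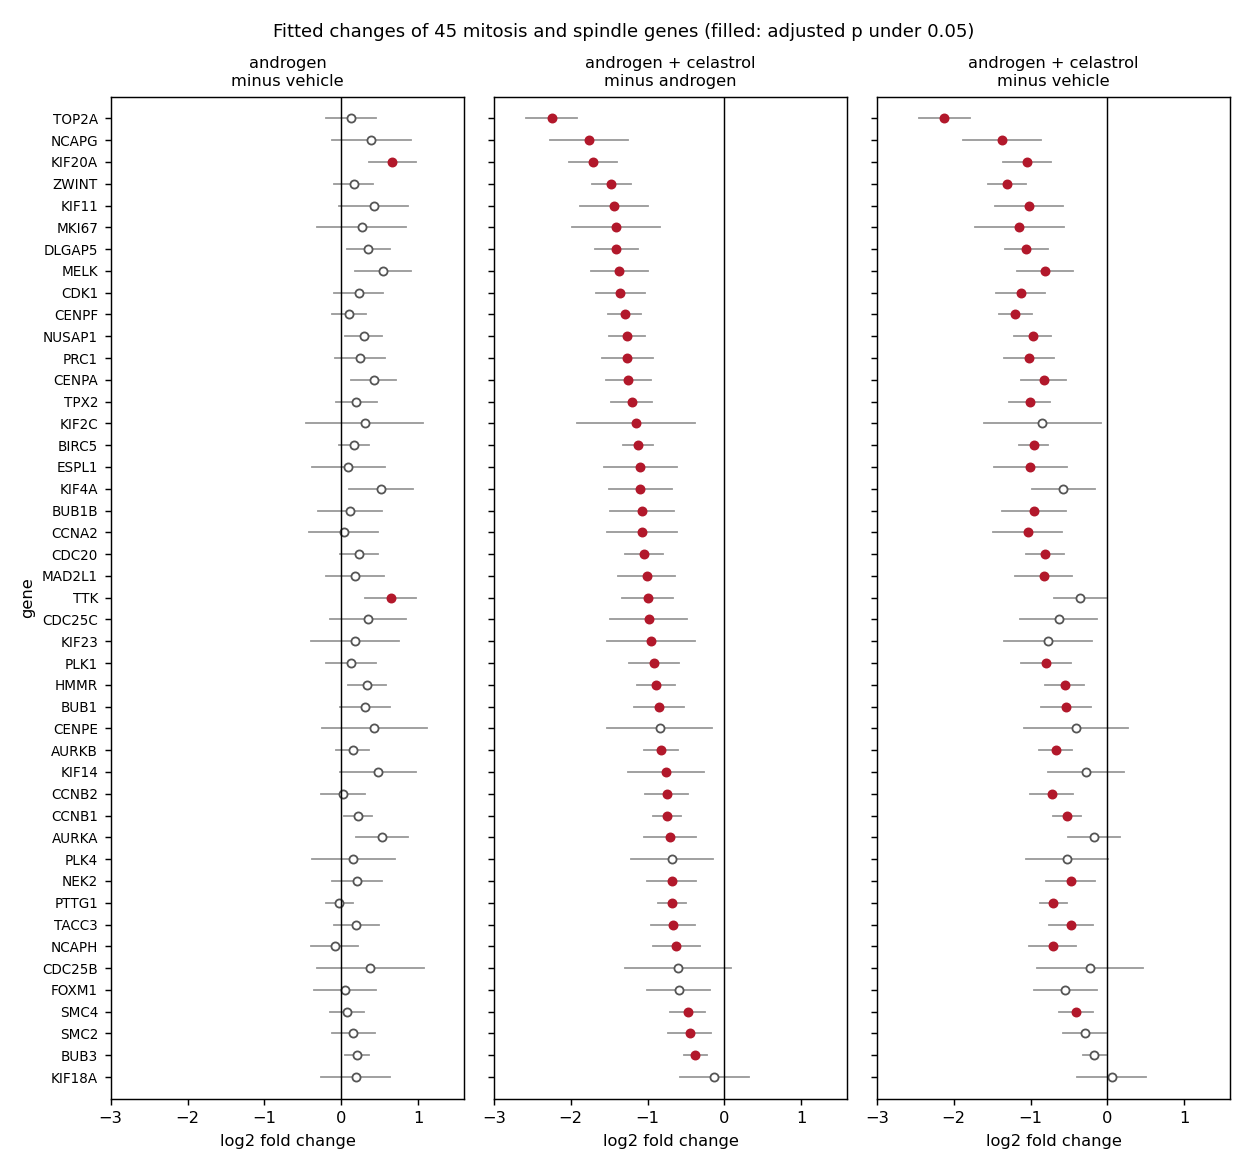
Fitted log2 fold changes of 45 genes (rows, ordered by the middle panel) in the 3 comparisons, with 95% intervals of the limma fit as lines; filled points passed an adjusted p under 0.05. Filled points number 2, 40 and 31 from left to right, and the middle and right panels lie almost wholly below 0.

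Other genes of the same pathway were counted from lists chosen by function, also with earlier results of these data known. Of 39 other genes with peak expression in mitosis, 33 fell with celastrol against androgen and none rose (median -0.83), where 7.24% of all genes were lower and 9.0% higher, with PSRC1 (-1.70 ± 0.25) and the kinase PBK (-1.67 ± 0.16) lowest. For the lists that follow, the share of all genes called was 16.2% (7.24% lower, 9.0% higher). Of 9 subunits or activators of the anaphase-promoting complex, 1 rose and 1 fell (median 0.00): CDC16 rose by 0.40 ± 0.07 and ANAPC5 changed by -0.28 ± 0.08. Of 9 cohesin genes, which hold sister chromatids together, NIPBL rose (0.44 ± 0.10) while PDS5B (-0.65 ± 0.08) and SMC1A (-0.36 ± 0.10) fell. Of 11 centrosome genes, NUMA1 (-0.75 ± 0.09) and TUBG1 (-0.33 ± 0.09) fell. Of 12 mitotic phosphatases and brakes, PPP2R2A rose (0.65 ± 0.09) and FBXO5 (-1.43 ± 0.17), PPP1CC (-0.46 ± 0.09) and PPP2R1A (-0.35 ± 0.10) fell. FBXO5 encodes an inhibitor of the anaphase-promoting complex. Of 8 genes of the DREAM complex and its partners, RBL2 rose (0.29 ± 0.08), while E2F5 (-0.74 ± 0.15) and TFDP1 (-0.49 ± 0.11) fell.

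Some genes of these lists behaved otherwise under androgen. CENPN, a centromere protein, was at 1298, 1198 and 1218 in vehicle, 7395, 6548 and 6795 in androgen and 4873, 5270 and 5249 in androgen plus celastrol. It rose with androgen (2.48 ± 0.08, adjusted p = 6.01e-07), was lower with celastrol than with androgen (-0.43 ± 0.08) and stayed above vehicle (2.05 ± 0.08). The condensin II subunit NCAPD3 read 362, 360 and 373 in vehicle, 2122, 2456 and 2630 in androgen and 727, 759 and 744 in androgen plus celastrol, with changes of 2.71 ± 0.09, -1.69 ± 0.09 and 1.03 ± 0.09. The other condensin subunits NCAPG2 (-0.90 ± 0.09) and NCAPD2 (-0.76 ± 0.16) fell with celastrol without a call for androgen. The chromokinesin KIF22 rose by 1.14 ± 0.13 with androgen and the cohesin regulator PDS5B by 1.14 ± 0.08, and both stayed above vehicle with celastrol (0.57 ± 0.13 and 0.48 ± 0.08). The phosphatase CDC14B rose by 2.06 ± 0.19 and was above vehicle by 1.45 ± 0.19.

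The neighbouring lists of the cell cycle are given for comparison. Of 33 DNA replication genes 22 fell with celastrol and none rose (median -0.77), where 7.24% of all genes were lower and 9.0% higher, with RRM2 (-2.49 ± 0.20) and TYMS (-1.76 ± 0.18) lowest. Of 13 G1 cyclins, CDKs and CDK inhibitors, the inhibitors CDKN1A (0.54 ± 0.13) and CDKN1B (0.48 ± 0.08) rose and CCND1 (-0.72 ± 0.10) fell, 3 of 13 against 16.2% of all genes, and the median was 0.01. The difference between these lists and the mitosis and spindle genes was not tested.

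**Figure D5:**
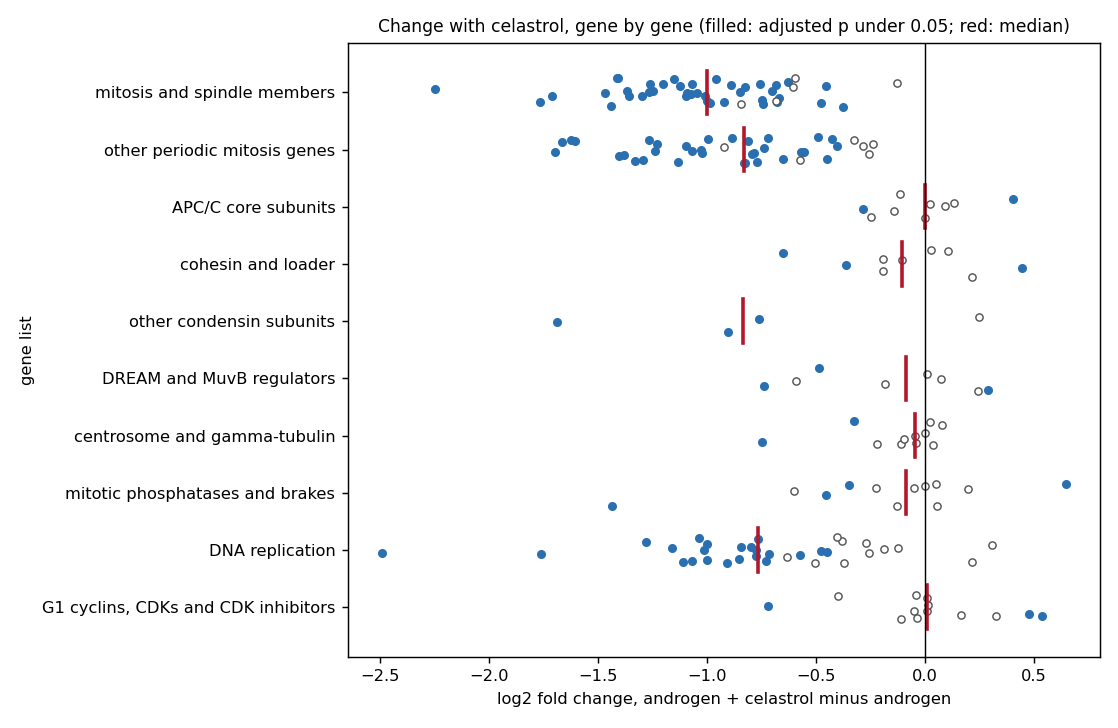
Log2 fold change of androgen plus celastrol against androgen for every gene (points, filled where adjusted p was under 0.05) of the mitosis and spindle genes and of 9 further lists, with the median in red. Points of the mitosis, other periodic and replication lists lie mostly between -0.5 and -1.7. The other condensin subunits have a median of -0.83. Medians of the remaining lists lie near 0, from -0.11 (cohesin) to 0.01 (G1 genes), with single genes far from it, such as FBXO5.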

How the data were processed

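RNA of 9 LNCaP cultures was hybridised to Affymetrix arrays as biotin-labelled cRNA, per the labels. The authors deposited linear intensities for each probe set, summarised with RMA according to the submitters' processing notes; the RMA version is not given in the sources used here. RMA normalises between arrays, yet the deposited medians and upper quartiles still differed (medians 72.2 to 80.2), and total RNA per cell was not measured. Log2 was taken with a pseudocount of 0 and no filter on low values, so all 45 genes were tested. The annotation lists 1 gene for 19724 of 22215 probe sets, several for 568 and none for 1923. Symbols of 19707 were updated through gene IDs.

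All 9 arrays entered 1 linear model (R 4.3.3, limma 3.58.1, moderated by eBayes, with 6 residual degrees of freedom) without a replicate term. The fitting script was tested on simulated data. P-values were adjusted by Benjamini-Hochberg over 12165 genes, with 0.05 as the threshold. The check on further probe sets was a separate fit, adjusted over 19724 probe sets. The genes and lists were chosen with earlier results of these data known. Values on every array are given for the 2 largest changes per role, for genes that did not pass with celastrol and for those that passed with androgen; in further lists, the largest changes and risers are named. Genes singled out otherwise (CENPN, NCAPD3, KIF22, PDS5B and CDC14B under androgen) were chosen after their values were seen.

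Replicate numbers 1 to 3 recur in each group. Deviations from the group means correlated at 0.40, 0.37 and 0.63 between same-numbered vehicle and androgen arrays. Different-numbered arrays of these groups gave -0.57 to 0.41, the highest for vehicle 2 with androgen 1, and the labels do not say what a number shares. These correlations therefore cannot show whether the numbers mark pairs. The main model ignored the numbers, and a model with a term for them (the replicate block) was fitted as an alternative. Same-numbered arrays gave -0.09, 0.21 and -0.19 for androgen and androgen plus celastrol, and -0.26, 0.11 and -0.29 for vehicle and androgen plus celastrol.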

Additional observations from a re-analysis of the deposited data

How the results depend on the processing

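Directions of called genes did not reverse in any of the 18 alternatives for the 45 genes in the 3 comparisons. In the celastrol comparison 31 of the 40 calls held in all of them, and against vehicle 27 of 31. Of the 45 genes, 2 passed for androgen against vehicle, all upwards here and below. This became 5 with quantile normalization, 10 with each array's median subtracted, 4 with a pseudocount of 16, 4 without the lowest 25% of genes and 8 with a variance trend. Over all genes, 872 were called higher, and 885, 1182, 951, 964 (of 9123) and 1052 in these settings, in the same order. Leaving out 1 array gave 0 to 4 of the 45 genes for androgen, 33 to 43 for celastrol against androgen and 27 to 34 for androgen plus celastrol against vehicle. All genes called then ranged from 1078 to 1836 for androgen and from 2285 to 2935 for androgen plus celastrol against vehicle. The median against androgen then ranged from -1.13 without androgen plus celastrol replicate 3 to -0.88 without androgen plus celastrol replicate 1, and the number of all genes called from 1306 without androgen replicate 2 to 2667 without vehicle replicate 3. With the replicate block the counts of members were 2, 37 and 31 for androgen, celastrol against androgen, and androgen plus celastrol against vehicle. The block changed no count by over 1.5 times. Of all 12165 genes, 1406, 1716 and 2688 passed with it, in the same order. Over all genes, the split for androgen was 872 higher and 711 lower, and 1182 and 529 with array medians subtracted. The cause of these shifts was not tested. Signal limits what can be said of KIF18A, whose intensity was below the median on every array, and of KIF11 with celastrol.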

Other observations

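The genes outside the list whose profile over the 9 arrays was most like the mean of the 45 genes were, in order, ARG2, ETV1, KIF5C, CKAP2, CENPU, NDC80, PBK, CALML4, GMNN and RLN1, with Pearson correlations from 0.993 to 0.985 (a description over arrays that share the treatments, with no test). CKAP2, CENPU and NDC80 act at the spindle or the kinetochore, PBK is a mitotic kinase and GMNN blocks a further round of DNA licensing. The others have no established place in mitosis. ARG2, the mitochondrial arginase, changed by -1.61 ± 0.13 with celastrol against androgen (adjusted p = 0.000111) and by 0.30 ± 0.13 with androgen (adjusted p = 0.208). The transcription factor ETV1, a target of gene fusion in prostate cancer, changed by -0.78 ± 0.09, the neuronal kinesin KIF5C by -1.0 ± 0.10 and the hormone relaxin RLN1 by -0.89 ± 0.09. CALML4 changed by -1.74 ± 0.18.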
